A study of Camelus dromedarius with 30 samples.

Results

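THRSP (identifier ENSCDRG00005005606), the gene of thyroid hormone responsive protein or Spot 14, is 1 of the 22444 genes counted in the kidneys of 15 male dromedaries aged 4 to 5 years. It was chosen because its level was low in dehydrated camels. It lies on chromosome 10 of the CamDro2 assembly (53868195 to 53868647, plus strand) as a single exon of 453 bases. That length is a multiple of 3, so the model holds a reading frame and no untranslated region that could add reads. Poly(A)-selected RNA of the kidney cortex and the kidney medulla was sequenced from every camel, and the 30 libraries form 6 groups of 5. All camels were fed alfalfa hay. The control camels drank freely, the dehydrated camels went 20 days without water with food at hand, and the rehydrated camels went through the same 20 days and then drank freely for 3 days. No animal was measured under more than 1 condition. The protocol of the rehydrated camels was longer than that of the dehydrated camels by those 3 days, and dates of killing by group are not given.

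Spot 14 is a small acidic nuclear protein without a known DNA-binding domain. It is best known in liver, fat and lactating mammary gland, where its transcript follows the supply of carbohydrate and thyroid hormone. In lactating mammary gland its loss lowers the synthesis of fatty acids. Its only close relative, MID1IP1, binds acetyl-CoA carboxylase, the enzyme that commits acetyl-CoA to fatty acid synthesis. The enzymes downstream build palmitate, elongate it and place double bonds, and transcription factors of the SREBP family, the liver X receptors and ChREBP drive many of their genes.

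The libraries held between 12634346 and 20005136 counted read pairs, and 15376 genes passed the filter on low counts and were tested. Levels are given in CPM, which are counts scaled to the size of the library, after TMM normalization. Fold changes come from a single edgeR quasi-likelihood fit of all 6 groups, with p-values adjusted over all tested genes by the Benjamini-Hochberg method, and a gene is called where its adjusted p-value is under 0.05. The medians of all tested genes lay between 0.00 and 0.03 (log2) in the comparisons of conditions. Among genes of kidney segments, the thick ascending limb gene UMOD had a median of 3499 CPM in control cortex and 16633 CPM in control medulla. The summed level of the proximal tubule genes SLC22A8 and SLC13A3 had medians of 2330 and 311 CPM. The distal tubule gene PVALB, at 1.02 and 2.15 CPM, was not higher in the cortex.

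In the cortex of control camels, THRSP stood at 35.2, 33.7, 17.0, 34.1 and 28.8 CPM. In dehydrated camels it stood at 4.58, 3.73, 6.18, 4.11 and 3.65 CPM. In rehydrated camels the values were 27.1, 9.67, 11.7, 15.4 and 11.8 CPM. Every dehydrated library was below every control library and below every rehydrated library, while the first rehydrated library reached into the range of the controls. The means were 29.7 ± 7.56 CPM in control, 4.45 ± 1.04 CPM in dehydrated and 15.2 ± 7.01 CPM in rehydrated cortex (SD, n = 5 each). The fitted log2 fold change of dehydration against control was -2.74 ± 0.50 (SE), a level 6.66-fold lower and the 21st lowest of the 15376 fold changes. In that comparison 2.34% of tested genes were called, 1.28% higher and 1.06% lower. Because THRSP was chosen for this difference, its value is a description and no test is given. In whole tissue, fewer cells of a type and less RNA per cell cannot be told apart.

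In the medulla, the control libraries held 2.92, 1.81, 1.34, 2.22 and 5.26 CPM. The dehydrated libraries held 0.643, 1.51, 0.0854, 0.196 and 0.300 CPM, and the rehydrated libraries 0.597, 1.99, 0.242, 2.06 and 2.18 CPM. The dehydrated group lay lowest, with 4 of its 5 libraries below every control library, and the rehydrated libraries split into 3 near 2 CPM and 2 within the range of the dehydrated group. The fitted log2 fold change of dehydration against control was -2.30 ± 0.54 (SE), a level 4.91-fold lower, in a comparison where 0.969% of tested genes were called, 0.228% higher and 0.741% lower. This value depended on single libraries. It was -3.14 without the second dehydrated library, -2.02 without the third dehydrated library and -1.91 without the fifth control library. The medulla values rested on few reads: the 5 dehydrated libraries held 14, 37, 2, 5 and 7 counts of THRSP. For the library with 2 counts, the exact Poisson 95% interval ran from 0.0103 to 0.308 CPM, which covers counting error only. The cortex libraries held 41 to 463 counts.

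**Figure D1:**
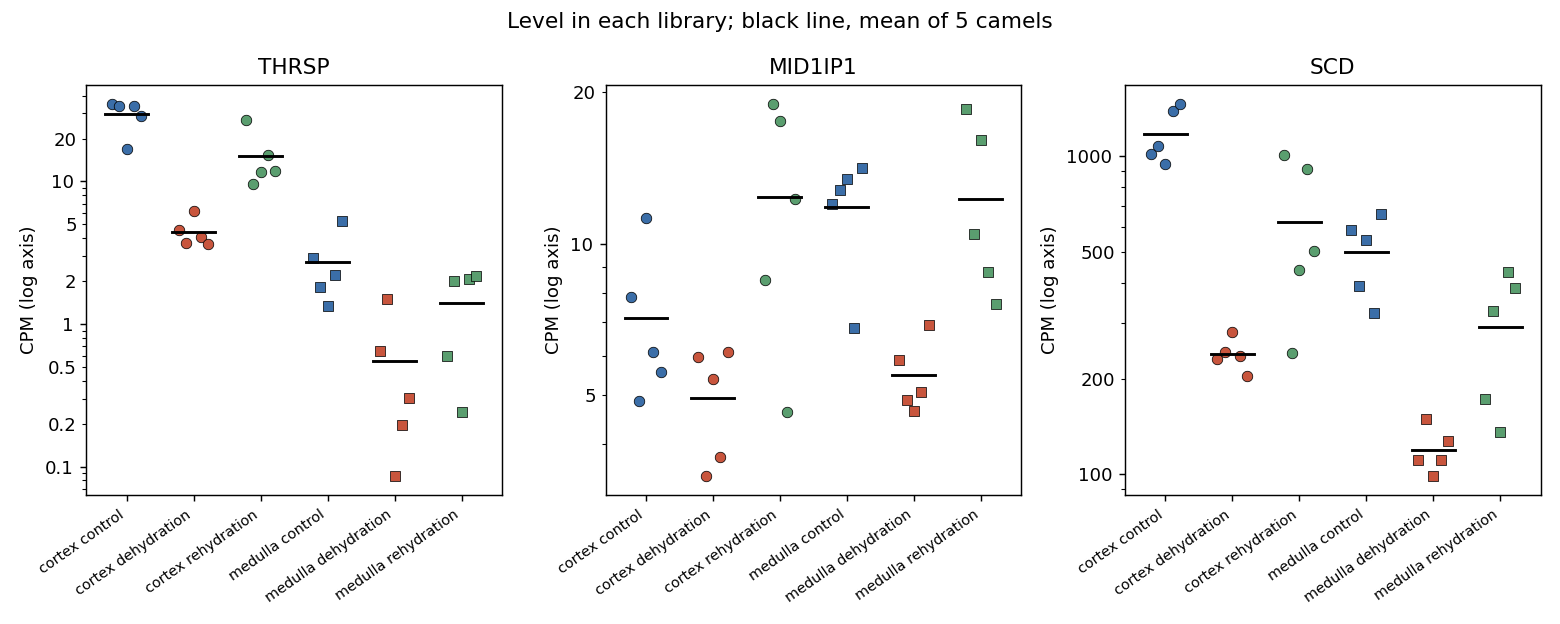
Levels of THRSP, MID1IP1 and SCD in each of the 30 libraries, in CPM on a log axis, by tissue and condition; each point is 1 camel and the black line the mean of 5. THRSP stood between 17.0 and 35.2 CPM in control cortex and between 3.65 and 6.18 CPM in dehydrated cortex, and the medulla groups lay lower still, with means from 0.547 to 2.71 CPM.

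The 6 groups, ordered by mean level, ran from control, rehydrated and dehydrated cortex to control, rehydrated and dehydrated medulla, with medulla means of 2.71 ± 1.54, 1.41 ± 0.919 and 0.547 ± 0.576 CPM (SD, n = 5 each). Rehydrated and dehydrated cortex were the only neighbours in this order whose libraries did not overlap. Dehydrated cortex overlapped with control medulla, which reached 5.26 CPM. Divided by the length of the gene model, THRSP stood at 65.6 CPM per kb in control cortex, above 87.9% of the tested genes. In dehydrated cortex it stood at 9.82 CPM per kb, above 58.8% of genes, and in rehydrated cortex at 33.5 CPM per kb, above 79.9%. In the medulla it was above 46.1% of genes in control, 17.1% in dehydrated and 30.6% in rehydrated camels.

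Whether rehydration restored the control level was compared in each tissue. The control libraries of this comparison also entered the one for which THRSP was chosen, so its values are not independent of that choice. In the cortex, 4 of 5 rehydrated libraries lay below every control library, and the log2 fold change of rehydration against control was -0.97 ± 0.47 (SE, 95% interval -1.94 to -0.01), or 1.96-fold lower. This did not pass the adjustment over all genes (edgeR, adjusted p = 0.565), in a comparison where 0.0390% of tested genes were called, 0.0260% higher and 0.0130% lower. In the medulla, 2 of 5 rehydrated libraries lay below every control library. With 1 library left out, the log2 fold change there ran from -1.14 to -0.54, the latter without the fifth control library. Over all libraries it was -0.92 ± 0.50 (SE and 95% interval -1.95 to 0.10, edgeR, adjusted p = 0.457), with 0.221% of tested genes called, 0.150% higher and 0.0715% lower. The difference between these log2 fold changes, medulla minus cortex, was 0.05 ± 0.73 (SE, 95% interval -1.45 to 1.54; edgeR, adjusted p = 1), an interval that leaves room for differences of more than a doubling in either direction.

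Against dehydrated camels, THRSP was higher in rehydrated camels by a log2 fold change of 1.76 ± 0.49 (SE) in the cortex and 1.37 ± 0.54 (SE) in the medulla, given without a test because the dehydrated libraries chose the gene. Of the tested genes, 2.15% were called in this comparison in the cortex (0.937% higher and 1.21% lower) and 1.99% in the medulla (1.15% higher and 0.839% lower). The medulla value was 2.21 without the second dehydrated library and 1.10 without the third. The difference between tissues in the log2 fold change of dehydration against control, medulla minus cortex, was 0.44 ± 0.74 (SE), likewise without a test.

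The rule did not use the difference between tissues. THRSP was lower in the medulla than in the cortex in control camels, with a log2 fold change of -3.45 ± 0.52 (SE, 95% interval -4.51 to -2.39; edgeR, adjusted p = 3.72e-06), or 10.9-fold. It was 8.06-fold lower in dehydrated camels (log2 -3.01 ± 0.55, SE; adjusted p = 3.75e-05) and 10.6-fold lower in rehydrated camels (log2 -3.40 ± 0.52, SE; adjusted p = 4.85e-06). In each condition every medulla library was below every cortex library. The log2 fold change in dehydrated camels was -3.85 without the second dehydrated medulla library and -2.74 without the third. Differences between the tissues were widespread, and 59.5% of tested genes were called in control camels, 31.2% higher and 28.2% lower in the medulla. In dehydrated camels 63.6% were called, 33.2% higher and 30.4% lower, and in rehydrated camels 58.5%, 31.3% higher and 27.2% lower. The proximal tubule genes SLC22A8 and SLC13A3 were lower in control medulla as well, with log2 fold changes of -4.91 ± 0.72 and -1.95 ± 0.42 (SE, adjusted p = 2.92e-06 and 0.000325), and the part of tissue makeup in the THRSP difference was not tested. Within single animals as labelled, the cortex exceeded the medulla by 5.47-fold to 18.6-fold in control, 2.47-fold to 72.4-fold in dehydrated and 4.86-fold to 48.5-fold in rehydrated camels.

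MID1IP1 (ENSCDRG00005019974, X chromosome from 31059032 to 31059583, plus strand, a single exon of 552 bases) did not share this distribution. In the cortex it stood at 7.82, 4.87, 11.2, 6.10 and 5.57 CPM in control, 5.95, 3.46, 5.39, 3.77 and 6.10 CPM in dehydrated, and 8.48, 19.0, 17.5, 4.64 and 12.3 CPM in rehydrated camels. The 3 cortex groups overlapped. In the medulla the values were 12.0, 12.8, 13.4, 6.81 and 14.1 CPM in control, 5.88, 4.89, 4.65, 5.07 and 6.91 CPM in dehydrated, and 18.5, 10.4, 16.0, 8.77 and 7.58 CPM in rehydrated camels. Every dehydrated medulla library lay below every rehydrated one, and 4 of the control libraries lay above all dehydrated libraries. Dehydration against control gave log2 fold changes of -0.52 ± 0.32 in the cortex (SE, edgeR, adjusted p = 0.483) and -1.11 ± 0.31 in the medulla (SE, adjusted p = 0.083). MID1IP1 rose from dehydration to rehydration in both tissues, by 1.32 ± 0.32 (SE, log2, edgeR, adjusted p = 0.026) in the cortex and 1.16 ± 0.31 (SE, log2, adjusted p = 0.0492) in the medulla. In control camels the medulla exceeded the cortex in MID1IP1 by a log2 fold change of 0.73 ± 0.31 (SE, edgeR, adjusted p = 0.0457), the opposite direction to THRSP. Per length of the gene model, THRSP exceeded MID1IP1 in control cortex (65.6 and 12.9 CPM per kb) and lay below it in control medulla (5.98 and 21.4 CPM per kb). Across the 15 libraries of a tissue, Pearson's r of MID1IP1 with THRSP was 0.214 in the cortex and 0.341 in the medulla.

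The genes most like THRSP were sought by Pearson's r of log2 CPM over the 15 libraries of each tissue, among genes whose mean there reached 1 CPM, 13187 in the cortex and 13877 in the medulla. These libraries share the difference between conditions for which THRSP was chosen, so r was also taken on the deviations of each library from the mean of its condition. Both are descriptions without a test. Symbols could be paired with 3496 of the cortex genes and 3546 of the medulla genes, many through lists of genes that the study had called on these libraries, and only genes with a symbol are named.

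SCD (stearoyl-CoA desaturase, which places the first double bond in saturated fatty acids) had the highest r of all ranked genes in both tissues, with or without a symbol. In the cortex r was 0.947 (Spearman's rho 0.936) and in the medulla 0.883 (rho 0.836). Without the 2 libraries farthest from the median of THRSP, r was 0.935 and 0.843. In the cortex SCD stood at 1018, 1081, 944, 1385 and 1467 CPM in control, 230, 242, 281, 236 and 204 CPM in dehydrated, and 1008, 241, 439, 911 and 506 CPM in rehydrated camels. As for THRSP, the first rehydrated cortex library was the highest of its group and the second the lowest. In the medulla SCD stood at 586, 392, 544, 321 and 657 CPM in control, 111, 149, 98.4, 111 and 127 CPM in dehydrated, and 172, 327, 136, 433 and 385 CPM in rehydrated camels. Again the second dehydrated medulla library was the highest of its group for both genes, and rehydrated libraries 1 and 3 were the lowest. On deviations from the condition means, r was 0.723 in the cortex, rank 1147, and 0.768 in the medulla, rank 124.

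**Figure D2:**
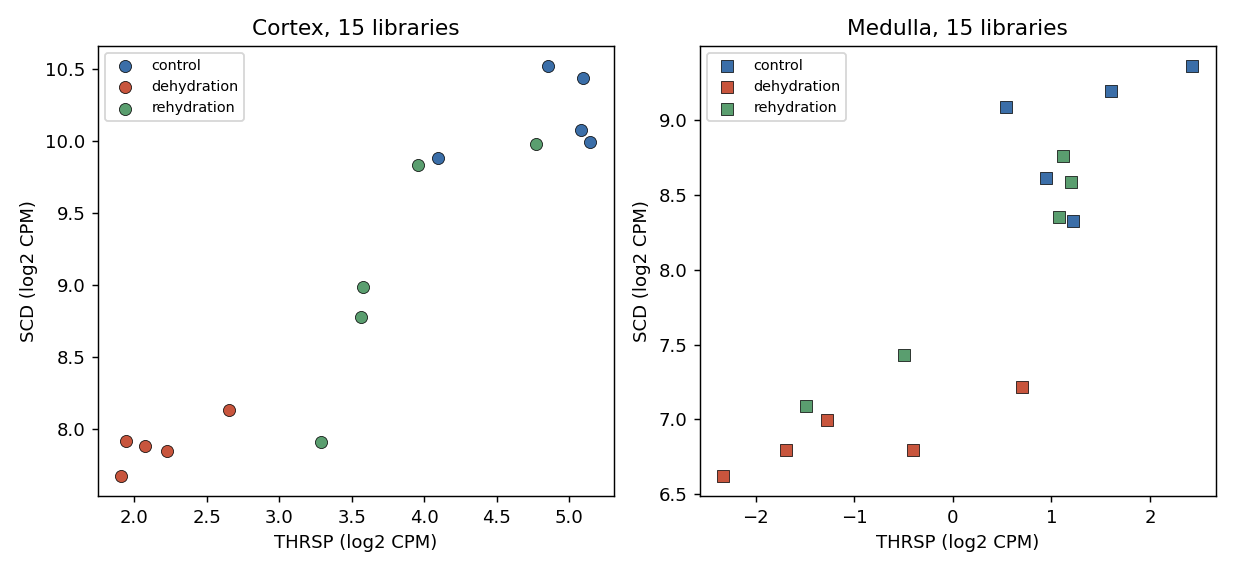
THRSP against SCD in log2 CPM over the 15 libraries of the cortex (left) and of the medulla (right), 1 point per library, coloured by condition. Both genes were lowest in the dehydrated camels, rehydrated libraries spread between the other groups, and r was 0.947 in the cortex and 0.883 in the medulla.

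In the cortex, 8 of the 10 genes of highest r with a symbol are reported. Beside SCD they were SLC8A1, a sodium-calcium exchanger (0.936), ABHD1, of the alpha/beta hydrolase family (0.934), and SLC17A3, an anion transporter of the proximal tubule (0.932). They were followed by SNX32, a sorting nexin (0.919), SPPL2A, an intramembrane protease (0.915), CYP51A1, the demethylase of lanosterol (0.914), and NT5E, an ecto-nucleotidase (0.907). All 8 had their lowest mean in dehydrated camels and were called lower there than in control (edgeR). So were 65 of the 100 genes of highest r, beside 1.06% of all tested genes. Since THRSP was chosen for its low level in dehydrated camels, this is no separate result. None of the 8 was among the 100 highest by the deviations from condition means, where NT5E stood at 0.391, SLC17A3 at 0.396 and the highest, SPPL2A, at 0.727. The lowest r belonged to GRAMD2A (-0.945), GPIHBP1, which anchors lipoprotein lipase on capillaries (-0.942), SYMPK, a scaffold of polyadenylation (-0.908), CDC25B, a cell cycle phosphatase (-0.900), and the nucleoside transporter SLC29A1 (-0.895). GRAMD2A (-0.900) and SYMPK (-0.857) kept their size on the deviations.

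In the medulla, SCD was followed by SLC22A16, a carnitine transporter (0.882), SLC25A21, a mitochondrial carrier (0.846), FDX1, a mitochondrial ferredoxin (0.844), MGST1, a microsomal glutathione transferase (0.834), and POLDIP2 (0.834). VAPB, a contact protein of the endoplasmic reticulum (0.830), CRYBG2 (0.827), AIFM1, a mitochondrial flavoprotein (0.824), and ACOT11, an acyl-CoA thioesterase (0.814), completed the 10. Here the deviations within conditions gave values closer to the whole, from 0.647 for ACOT11 to 0.866 for FDX1. Only SCD, MGST1 and CRYBG2 among these 10 were called lower in dehydration than in control. So were 14 of the 100 genes of highest r, beside 0.741% of all tested genes. The lowest r belonged to CPT1B, a carnitine palmitoyltransferase (-0.872), WSB1 (-0.859), the potassium channel gene KCNJ8 (-0.849), PADI2 (-0.839) and CDC25B (-0.835), the last also among the lowest in the cortex.

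**Figure D3:**
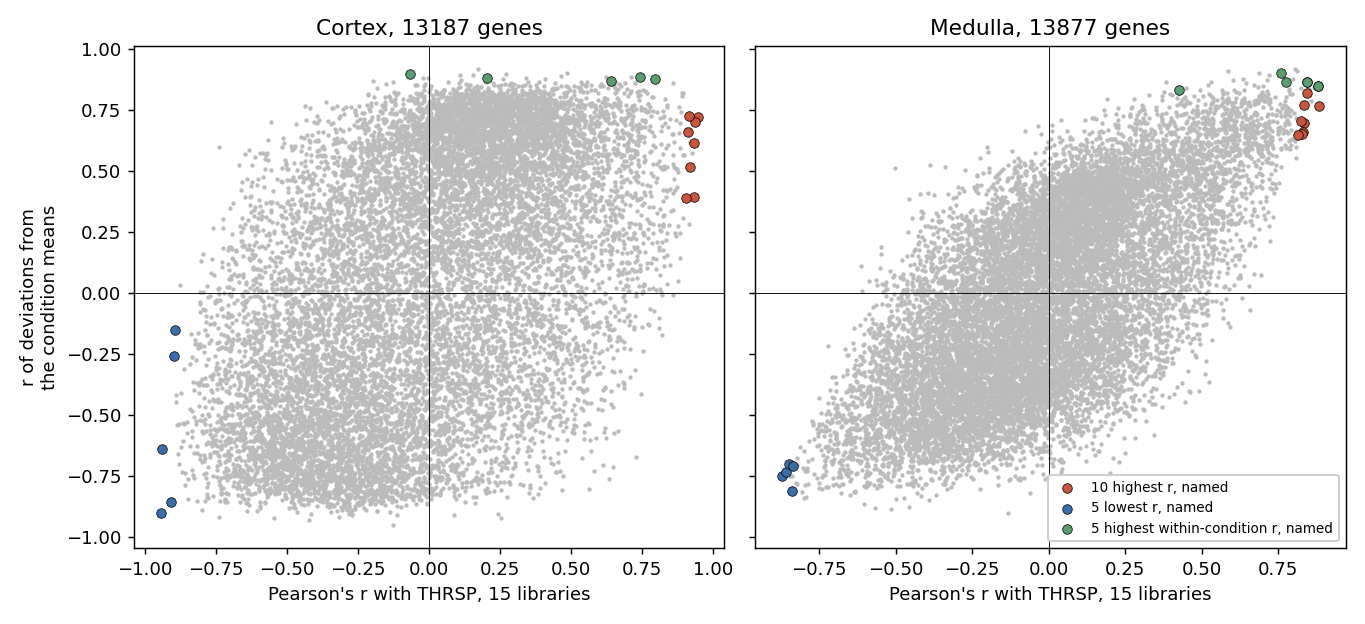
Pearson's r of each gene with THRSP over 15 libraries (horizontal) against r of the deviations from the condition means (vertical), in the cortex (left) and the medulla (right), with the named genes in colour. In the cortex the genes of highest r spread widely on the vertical axis, from 0.391 to 0.727, while in the medulla they lay between 0.647 and 0.866.

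By the deviations alone, the highest genes with a symbol in the cortex were IWS1 (0.896), CMAS (0.886), SMARCA5 (0.883), SYNCRIP (0.879) and MTPAP (0.867). They act in transcription, sialic acid activation, chromatin, RNA binding and mitochondrial RNA. None was called in dehydration against control, beside 2.34% of all tested genes. Each took its symbol from protein lists and not from the study's lists of called genes, so this is no separate result. In the medulla they were MCFD2 (0.902), FDX1 (0.866), SDC1 (0.865), SLC22A16 (0.847) and CERS2 (0.831). High values of this kind were common in the cortex, where 1444 genes exceeded 0.7 and 1180 fell under -0.7, against 294 and 220 in the medulla. SCD at 0.723 in the cortex was therefore one of many.

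Of the 100 genes with the highest r in each tissue, 17 were shared, 17% of each list, and 12 of them had a symbol. Those reported beside SCD were FDX1 and VAPB, the carrier SLC25A21, the ecto-enzymes NT5E and ANPEP, the peroxisomal oxidase PIPOX, the glucocorticoid-activating reductase HSD11B1, the kinase SGK2 and SUGCT. PIPOX had r of 0.820 and 0.769 on the deviations in the cortex and the medulla. Since both tissues were compared across the same 3 conditions, this overlap is given as a count.

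The other genes of lipid synthesis and thyroid hormone action were taken from 9 lists of 105 genes in all. Identifiers could be paired with 54 of them beside THRSP, and all 54 were tested. For 41 of these the symbol came from the study's own text or lists of genes called on these libraries, so these counts are not independent evidence of a direction, and none of the other 13 was called in any comparison of conditions. FASN and THRB could not be paired and have no value here. In the cortex, 13 of the 54 fell and 3 rose in dehydration against control, beside 1.06% and 1.28% of all tested genes, with a median log2 fold change of -0.44. In the medulla 22 fell and 1 rose, beside 0.741% and 0.228% of all tested genes, with a median of -0.58. From dehydration to rehydration, 14 rose and 3 fell in the cortex, beside 0.937% and 1.21% of all tested genes, and 18 rose and none fell in the medulla, beside 1.15% and 0.839%. The cortex count of 17 was 10, 8, 10 and 9 without dehydrated library 1, 2, 3 or 4 and 11 without the first rehydrated library, and the medulla count of 18 was 10 or 11 without dehydrated library 3 or 4. Rehydration against control gave no call in the cortex (edgeR, 9 at an unadjusted p under 0.05, and 1 called by DESeq2) and 1 in the medulla, beside 0.0390% and 0.221% of all tested genes.

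Among genes that supply acetyl-CoA and NADPH, none of 5 was called in the cortex in dehydration against control, beside 2.34% of all tested genes. In the medulla the acetyl-CoA synthetases ACSS1 and ACSS2 fell, with -0.97 ± 0.19 and -0.83 ± 0.19 (SE, log2, edgeR, adjusted p = 0.00724 and 0.0241). The other 3 did not pass, beside 0.741% of all tested genes that fell. ACACA (acetyl-CoA carboxylase), the only fatty acid synthesis gene with an identifier, had log2 fold changes of -0.57 ± 0.19 in the cortex and -0.51 ± 0.19 in the medulla (SE, adjusted p = 0.123 and 0.242). Its r with THRSP was 0.754 in the cortex and 0.448 in the medulla.

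Of 7 elongation and desaturation genes, 3 fell in the cortex and 2 in the medulla, beside 1.06% and 0.741% of all tested genes. SCD fell in both, with -2.31 ± 0.31 in the cortex and -2.07 ± 0.31 in the medulla (SE, log2, edgeR, adjusted p = 0.000142 and 0.000367), and rose with rehydration by 1.38 ± 0.30 and 1.28 ± 0.30 (adjusted p = 0.0142 and 0.0251). The elongation enzymes HSD17B12, a reductase (-0.90 ± 0.14, SE), and HACD2, a dehydratase (-0.82 ± 0.20, SE), fell in the cortex, with adjusted p = 0.000672 and 0.0252. ELOVL6, the elongase of palmitate, fell in the medulla, with a log2 fold change of -1.22 ± 0.30 (SE, adjusted p = 0.0425). None of 6 triglyceride and lipid droplet genes was called in any comparison of conditions in either tissue (edgeR), beside 0.0390% to 2.34% of all tested genes. For 5 of the 6 the symbol came from protein lists and not from the study's lists of called genes. The lack of calls is therefore no separate result about this list. Their median log2 fold change in dehydration was -0.17 in the cortex and 0.04 in the medulla.

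Among 5 regulators of lipid synthesis, 1 rose and 1 fell in the cortex in dehydration, beside 1.28% and 1.06% of all tested genes. In the medulla 3 fell and none rose, beside 0.741% and 0.228%. INSIG1, which holds SREBP precursors in the endoplasmic reticulum and is itself an SREBP target, fell in both tissues. Its log2 fold changes were -1.82 ± 0.27 in the cortex and -2.42 ± 0.28 in the medulla (SE, edgeR, adjusted p = 0.00053 and 4.87e-06). SREBF2 fell in the medulla, with a log2 fold change of -1.35 ± 0.25 (SE, adjusted p = 0.00546), as did PPARD (-0.50 ± 0.12, SE; adjusted p = 0.0314). SREBF1, the SREBP gene of fatty acid synthesis, had log2 fold changes of -0.75 ± 0.31 and -0.80 ± 0.31 in the cortex and the medulla (SE, adjusted p = 0.239 and 0.272) and rose from dehydration to rehydration by 1.27 ± 0.31 and 1.15 ± 0.31 (SE, adjusted p = 0.0277 and 0.0492). PPARG rose in the cortex in dehydration, with a log2 fold change of 0.88 ± 0.24 (SE, adjusted p = 0.0432), opposite to THRSP. INSIG1 ranked 15 by r with THRSP in the cortex (0.894) and 480 in the medulla (0.593). On deviations from the condition means its r was 0.308 (rank 5132) and -0.139 (rank 7796).

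Of 6 genes of thyroid hormone handling, 1 was called in dehydration against control in the cortex and none in the medulla (edgeR, 3 and 1 at an unadjusted p under 0.05), beside 2.34% and 0.969% of all tested genes. THRA, a thyroid hormone receptor gene, ranged from 93.5 to 132 CPM in control cortex and from 150 to 228 CPM in dehydrated cortex. Its groups did not overlap, and it rose by a log2 fold change of 0.71 ± 0.15 (SE, edgeR, adjusted p = 0.0075) and fell from dehydration to rehydration by 0.70 ± 0.15 (SE, adjusted p = 0.0101). In the medulla its log2 fold change was -0.08 ± 0.15 (SE, adjusted p = 0.91). DIO1, the deiodinase that converts thyroxine to the active hormone, had a log2 fold change of 0.91 ± 0.34 in the cortex (SE, adjusted p = 0.176) and fell from dehydration to rehydration by 1.59 ± 0.35 (SE, adjusted p = 0.014). THRA had r of -0.809 with THRSP in the cortex and -0.111 in the medulla, and -0.378 and -0.276 on deviations from the condition means.

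All 14 cholesterol synthesis genes of the study's own list, which was chosen on these libraries, had fold changes below 0 in dehydration in both tissues, and 7 were called in the cortex and 14 in the medulla, beside 2.34% and 0.969% of all tested genes. CYP51A1 fell, with log2 fold changes of -1.72 ± 0.24 in the cortex and -2.10 ± 0.25 in the medulla (SE, edgeR, adjusted p = 0.000244 and 5.95e-06). DHCR7, the sterol reductase of the last step (-1.21 ± 0.20 and -1.95 ± 0.20), and FDPS, the farnesyl diphosphate synthase (-1.14 ± 0.22 and -2.03 ± 0.23), fell in both tissues as well. The median r of the 14 genes with THRSP was 0.735 in the cortex and 0.630 in the medulla, beside medians over all genes of 0.00 and -0.02. Of 9 genes of fatty acid oxidation, 1 rose and 2 fell in the cortex in dehydration, beside 1.28% and 1.06% of all tested genes. In the medulla 1 rose and 1 fell, beside 0.228% and 0.741%. ANGPTL4, an inhibitor of lipoprotein lipase, rose in both tissues, by 2.74 ± 0.61 and 2.65 ± 0.57 (SE, log2, edgeR, adjusted p = 0.0133 and 0.0161). CPT2, a carnitine palmitoyltransferase, fell in both, with -0.45 ± 0.11 in each (SE, log2, adjusted p = 0.0206 and 0.0337). ACADM, an acyl-CoA dehydrogenase, fell in the cortex, with a log2 fold change of -1.02 ± 0.26 (SE, adjusted p = 0.0344). ANGPTL4 was also higher than control after rehydration in the medulla, with a log2 fold change of 2.80 ± 0.57 (SE, adjusted p = 0.0402), the single listed gene called there. No listed gene was called in that comparison without control library 1, 3, 4 or 5, without rehydrated library 2, 3 or 5, with the medulla fitted alone, or with the replicate block.

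**Figure D4:**
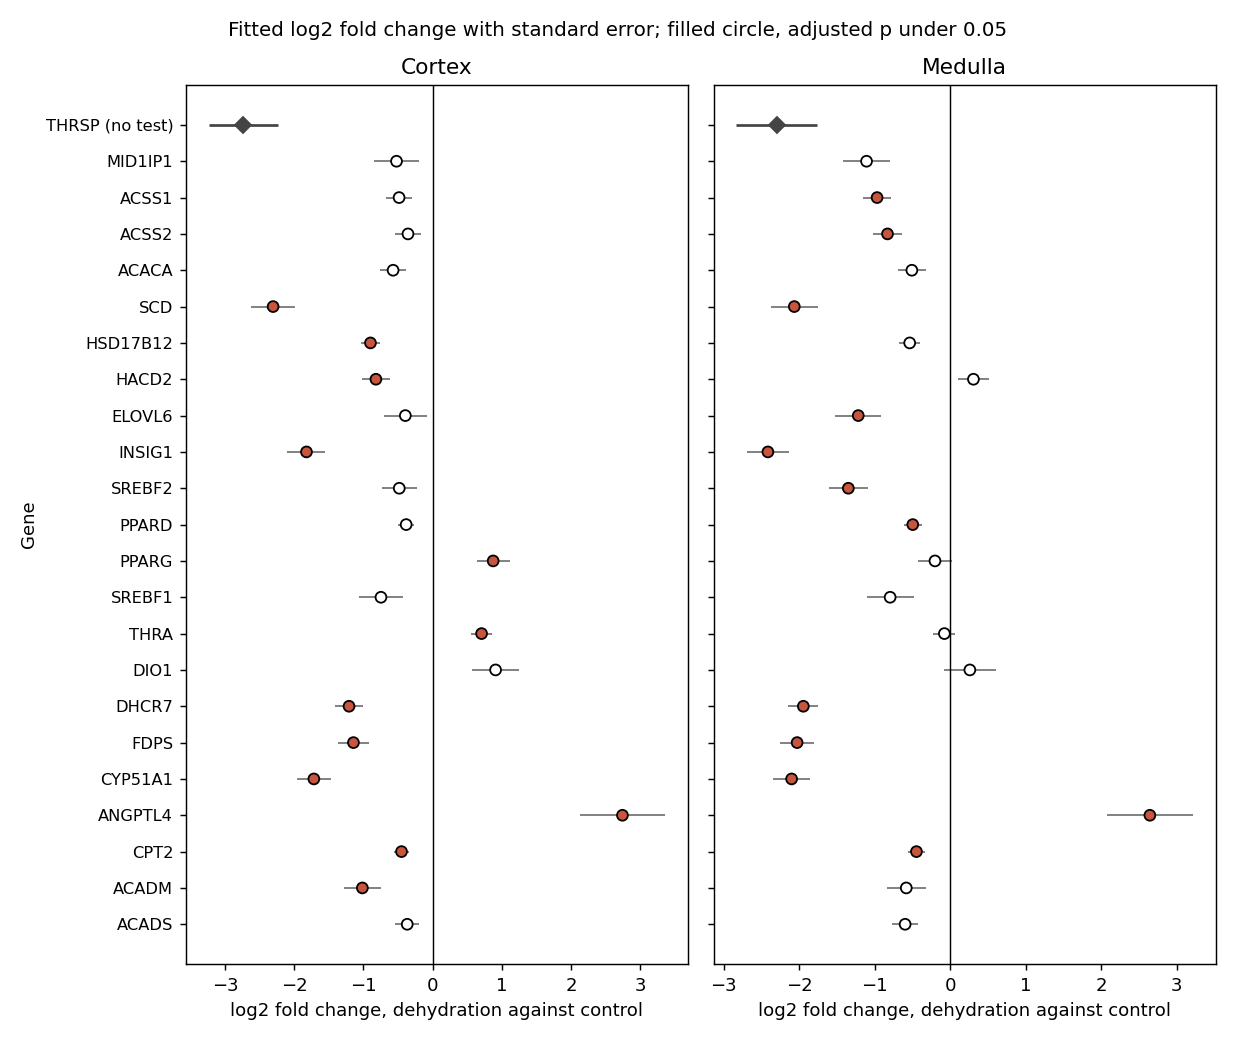
Fitted log2 fold change of dehydration against control with its standard error for THRSP (diamond, no test) and the named genes of the lists, in the cortex (left) and the medulla (right); filled circles have an adjusted p-value under 0.05. In the cortex THRSP (-2.74) and SCD (-2.31) lay lowest, in the medulla INSIG1 (-2.42) and THRSP (-2.30) lay lowest of the genes plotted, and ANGPTL4 (2.74 and 2.65) at the high end.

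Markers of cell types were summed in each library. Of 12 adipocyte markers, 2 had an identifier. ADIPOQ was at 0 counts in 20 of the 30 libraries and reached at most 42 counts, and the summed level of ADIPOQ and FABP4 ran from 0.296 to 2.04 CPM in control and from 1.46 to 3.40 CPM in dehydrated cortex, overlapping ranges. Of 8 proximal tubule markers, SLC22A8 and SLC13A3 had an identifier. Their summed level ran from 1545 to 2619 CPM in control, 621 to 1122 CPM in dehydrated and 1882 to 3057 CPM in rehydrated cortex, so that it was lower in dehydration as THRSP was, and in rehydrated camels lay within or above the control range, while 4 of 5 THRSP values lay below theirs. Neither gene was called in dehydration against control (edgeR, adjusted p = 0.193 and 0.186 in the cortex). In the medulla it ran from 44.6 to 524 CPM in control, 27.6 to 172 CPM in dehydrated and 145 to 321 CPM in rehydrated camels. On deviations from the condition means, SLC22A8 had r of -0.067 with THRSP in the cortex and 0.71 in the medulla. Of 5 endothelial markers, 3 had an identifier, and their sum ran from 219 to 269 CPM in control, 356 to 423 CPM in dehydrated and 215 to 276 CPM in rehydrated cortex. Of 6 adrenal cortex markers only STAR had an identifier, at 1.05 to 3.93 CPM in control and 0.153 to 1.71 CPM in dehydrated cortex. The thick ascending limb gene UMOD (1 of 4 markers) ran from 2790 to 4436 CPM in control and from 4545 to 7460 CPM in dehydrated cortex. The distal tubule gene PVALB (1 of 3) ran from 0.742 to 1.18 CPM and from 3.18 to 5.82 CPM there, AQP2 and AQP3 of the collecting duct (2 of 5) summed to 165 to 251 CPM and 212 to 313 CPM, and HBB of red cells (1 of 3) to 1.74 to 15.0 CPM and 0.909 to 5.26 CPM. No marker of podocytes or of macrophages and T cells could be paired, and no paired marker was at 0 in all libraries. The part of cell type shares in the THRSP values was not tested.

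Within 500 kb of THRSP the table holds 15 other genes, of which 14 were tested. None was called in dehydration against control in either tissue (edgeR), beside 2.34% and 0.969% of all tested genes. Their log2 fold changes ran from -0.59 to 0.57. The lowest was that of the nearest tested gene, ENSCDRG00005005626, which lies 3.20 kb beyond the end of THRSP on the minus strand (chromosome 10 from 53871846 to 53880150), with -0.59 ± 0.25 in the cortex (SE, adjusted p = 0.257) and -0.33 ± 0.25 in the medulla (SE, adjusted p = 0.705). RSF1, a chromatin remodelling gene 153 kb before THRSP and the only neighbour with a symbol, had -0.17 ± 0.24 and 0.26 ± 0.23 (SE, adjusted p = 0.826 and 0.759).

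**Figure D5:**
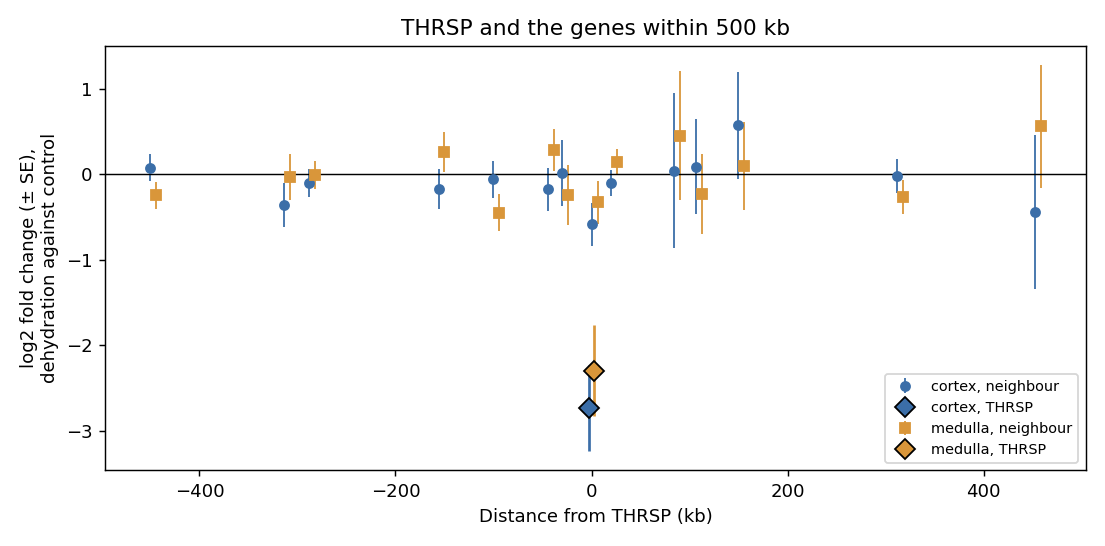
Log2 fold change of dehydration against control, with its standard error, for THRSP (diamonds) and the 14 tested genes within 500 kb, by distance from THRSP in kb, in the cortex (blue) and the medulla (orange). The neighbours lay between -0.59 and 0.57, and THRSP at -2.74 in the cortex and -2.30 in the medulla.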

How the data were processed

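The authors deposited raw counts of read pairs per gene for 30 libraries. Reads were trimmed with BBDuk and counted with featureCounts 1.6.2 on the reverse strand against Ensembl annotation of CamDro2. The paper names STAR as aligner and the file header Rsubread, so the aligner is not settled. The submitters' processing notes name DESeq2 1.31.18. Symbols for 3638 of 22444 identifiers came from the paper's text and lists, whose authors' fold changes and p-values were not used. THRSP and the lists were chosen with earlier results of these data known.

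The tests used edgeR 4.0.16 under R 4.3.3 (genes filtered by filterByExpr, TMM, 1 fit of 6 groups, glmQLFTest, Benjamini-Hochberg; log2 CPM with prior count 2). edgeR's default quasi-likelihood fit was used because its newer option made more false calls on the same set of simulated counts, a choice made after both had been seen. The biological coefficient of variation was 34.0%, so animals, not depth, set the precision of all but low counts. All p-values measure the spread between camels. The main fit had no animal term, so the tissue comparisons treated both tissues of a camel as if from separate camels. Across 60 replicate pairs, chi-square per degree of freedom was at least 18.2, so no library was a copy.

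Named genes were THRSP, MID1IP1, the 10 highest and 5 lowest by r and the 5 highest by within-condition r with a symbol in each tissue, genes among the 100 highest in both tissues, up to 4 called genes a list by adjusted p in dehydration, with ACACA and SREBF1, and neighbours within 500 kb. Marker genes are named as members of their lists. Results for 2 genes of the rule are not reported here.

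Alternatives were DESeq2 1.42.0, limma-voom (limma 3.58.1), RLE size factors, no filter, a mean of 1 CPM, each tissue alone, replicate or animal blocks, RNA integrity as covariate, exact permutation tests, an adjusted p under 0.01, and each library left out. Cortex and medulla carry the same animal label, and the deviations of same-labelled libraries from group means correlated across genes with a mean of 0.139 in control, 0.093 in dehydrated and 0.049 in rehydrated camels. No tissue comparison changed its call under the animal block.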

Additional observations from a re-analysis of the deposited data

Results flagged for a closer look

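The THRSP level of the third control cortex library, 17.0 CPM, stood apart from the other 4 at its low end: its gap to the nearest took 0.723 of the group's range in log2 CPM, above Dixon's critical value of 0.71 for 5 samples. Without it the log2 fold change was -2.88 for dehydration and -1.12 for rehydration against control (edgeR, adjusted p = 0.377 for the latter). The MID1IP1 level of the fourth control medulla library, 6.81 CPM, stood apart at the low end by 0.777 of its range. These were 2 of 18 groups examined for THRSP, MID1IP1 and SCD, and chance marks about 1 group in 20.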

How the results depend on the processing

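THRSP kept its direction in every comparison under every alternative. All comparisons of conditions used libraries that entered the choice of THRSP, so there the kept direction is a description. Its tissue differences passed under all settings except the exact paired permutation test over 5 animals (-3.51 in control, -3.16 in dehydrated, -3.55 in rehydrated camels), whose smallest possible p is 0.0625. Rehydration against control in the cortex passed in no fit across all genes, with adjusted p up to 0.884. The exact permutation test of 1 gene (-1.02, p = 0.0159) reuses the control libraries that chose THRSP and supports nothing. Numbers of listed genes called moved most. They were 10, 4, 0 and 10 at an adjusted p under 0.01 (cortex dehydration, cortex rehydration against dehydration, medulla rehydration against control and against dehydration). DESeq2 called 1 and 4 in rehydration against control in cortex and medulla, and the newer edgeR fit 2 in the medulla. Cortex rehydration against dehydration gave 8 with limma-voom, 10 with the tissue alone, 8 with the replicate block and 8 to 16 without 1 library. Medulla dehydration gave 14 with the replicate block. Medulla rehydration against control gave 0 with the tissue alone, 0 with the block and 0 to 2 without 1 library, and against dehydration 10 to 16. The cause was not tested. Replicate numbers pair no camels between conditions. Over all genes, calls ranged from 212 to 701 (cortex dehydration), 0 to 121 and 151 to 715 (cortex rehydration against control and dehydration), 36 to 393 (medulla dehydration), 0 to 291 and 179 to 852 (medulla rehydration), the highest always with DESeq2, against 360, 6, 330, 149, 34 and 306.

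The likeness of SCD fell to 0.723 in cortex and 0.768 in medulla on deviations from condition means, where 0 of the 10 cortex genes of highest r with a symbol, 3 of the medulla 10 and 0 shared genes stayed among the 100 highest. Without the 2 farthest libraries 5 of the medulla 10 and 8 shared genes stayed. Low counts limit the medulla values of THRSP.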

Other observations

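The labels number the rehydrated camels alike in both tissues, but the column names number the rehydrated cortex libraries 2 to 6 and the rehydrated medulla libraries 1 to 5. Deviations from group means correlated across genes with a mean of 0.351 over the 4 pairs that share a column number and 0.049 over the 5 pairs of the labels. With the 4 pairs as a block, THRSP was lower in the medulla by a log2 fold change of -3.40 (edgeR, adjusted p = 0.00118), a choice made after seeing the data.

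FADS1, a fatty acid desaturase named here after its values were seen, ranged from 0.468 to 25.8 CPM in rehydrated cortex. In dehydrated cortex it ranged from 1.11 to 2.52 CPM. The medians were 2.08 and 1.55 CPM, and 1 rehydrated library held 338 of the 631 counts of its group. The fitted log2 fold change of rehydration against dehydration was 2.52 ± 0.69 (SE, edgeR, adjusted p = 0.0491), and it rested on the high rehydrated libraries. The r of FADS1 with THRSP was 0.655 in the cortex and 0.753 in the medulla. On deviations from the condition means it was 0.819 and 0.452.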
